A study of Pyrus calleryana with 9 samples.

Results

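Callery pear seeds were kept at 4 °C to break dormancy, and this account concerns the state of their transcriptome after 20 d of cold relative to the stages on either side of it. The 20 d seeds gave 3 of the 9 RNA-seq libraries (replicates A, B and C), and the other 6 came from seeds before cold (0 d, A to C) and after 50 d of cold (A to C). All seeds were Pyrus calleryana that had taken up water, no genotype or chemical treatment differed between the groups, and each library was made from a pool of whole seeds. For each gene the 20 d libraries were set against the mean of 0 d and 50 d (weights 1, -0.5 and -0.5), on the log2 scale, with edgeR's quasi-likelihood test and p adjusted over all 28339 genes with enough counts, out of 59552 gene models. A gene was called a peak where the adjusted p was at most 0.01, this contrast was at least log2 1, the fitted 20 d level lay at least log2 0.5 above both other stages, and the mean FPKM (fragments per kilobase of gene, scaled to library size) reached 1 in at least 1 stage. A low was the mirror image. By this rule 45 genes were found: 33 peaks (0.116% of the genes tested) and 12 lows (0.0423%).

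Dormant temperate-fruit seeds do not germinate until they have imbibed in the cold for weeks. Abscisic acid holds the embryo dormant and gibberellin promotes germination, and the seed, while it waits, resumes protein synthesis, loosens its cell walls and begins to use its reserves. Around the embryo lie the endosperm and the maternal seed coat, whose proanthocyanidins (condensed tannins) contribute to dormancy in many species.

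The depth of the 20 d libraries was 15009158, 14644487 and 14983041 counts for A, B and C, within the 13893019 to 16228340 of the whole series. Library 20 d B stood apart from 20 d A and C. Its summed FPKM of 19 gene models named as chloroplast- or mitochondrion-encoded proteins was 404, against 9.97 in 20 d A and 19.7 in 20 d C, and that sum was 272 to 1505 in the 0 d libraries and 20.9 to 28.6 in the 50 d libraries. Library 20 d B also had the lowest quality weight of the 9 libraries in limma-voom, at 0.144. Without 20 d B the same rule gave 265 peaks and 160 lows, and these held 31 of the 33 peaks and all 12 lows. In the other direction the calls needed every 0 d library: leaving out 0 d A, B or C left no peak and no low, and leaving out 20 d A or 20 d C left 1 peak and no low. Most of the contrast lies under these limits, since 20.2% of the tested genes had an unadjusted p under 0.05. The 45 genes kept their direction without each of the 9 libraries in turn, with an edgeR adjusted p of at most 0.0662. DESeq2 called all 45, among 198 peaks and 255 lows. Both checks reuse the libraries that chose the 45 genes, so they are not independent support. Because the main counts of 33 peaks and 12 lows were small, a wider call (adjusted p at most 0.05, no fold limit, fitted 20 d level outside both other stages in the same direction, mean FPKM of at least 1) was used beside the main rule to describe gene families. It took in 372 peaks (1.31% of the genes tested) and 182 lows (0.642%), and without 20 d B 1874 peaks (6.35% of 29512 genes tested) and 1394 lows (4.72%), the background for every count given below without that library. Without 50 d C, whose quality weight was the next lowest at 0.256, the wider call took in 137 peaks (0.468% of 29268) and 98 lows (0.335%). The peaks were then 3 for SBT1.6 to SBT1.8, 1 for pentatricopeptide repeat proteins and 5 for cytosolic ribosomal proteins. The lows were then 3 for histones and 9 for major allergens. Genes named below from the wider call were partly chosen after their values were seen. Endosperm markers summed to 27.3 to 36.6 FPKM at 0 d, 32.0 to 57.8 FPKM at 20 d and 33.1 to 40.6 FPKM at 50 d, and embryo reserve genes to 16258 to 30256, 15699 to 19873 and 2910 to 6795 FPKM at those stages.

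The peaks were genes that were low before cold, highest at 20 d and then part of the way down. Their contrast ran between 1.75 and 5.26 on the log2 scale, with a median of 2.53, and their mean level at 20 d between 4.11 and 682 FPKM. In the comparison of 20 d with 0 d alone (adjusted p at most 0.01 and log2 at least 1; 8.44% of all tested genes were higher at 20 d), 32 of the 33 were called. In that of 20 d with 50 d alone (0.258% higher at 20 d), only Chr8.g55781 was called, and the median difference was log2 0.88. The 50 d level stayed above the 0 d level in 32 of 33. In 23 of the 33 all 3 of the 20 d libraries lay above all 6 others in scaled counts, where 2.39% of all tested genes did so. Chr9.g46488 and Chr7.g34411 were among these, although their 20 d and 50 d libraries overlapped slightly in FPKM. The rule chose the peaks from these same libraries, so these counts describe the calls and are not separate support for them. Of the 3 libraries of 20 d, B was the lowest in 23 of 33 peaks.

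The lows had the opposite course on the 50 d side. Their contrast lay between -5.00 and -2.49, with a median of -2.98, and their mean 20 d level was at most 6.71 FPKM. All 12 were lower at 20 d than at 50 d in that single comparison (1.42% of all tested genes), and 6 of 12 were lower than at 0 d (4.58%). The 50 d level exceeded the 0 d level in all 12, and in 11 of 12 the 20 d libraries lay below all 6 others in scaled counts (1.82% of all tested genes). As for the peaks, the rule chose these genes from the same libraries, so the counts against 0 d and 50 d only describe the calls. The heat map of the 45 genes shows both courses.

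**Figure D1:**
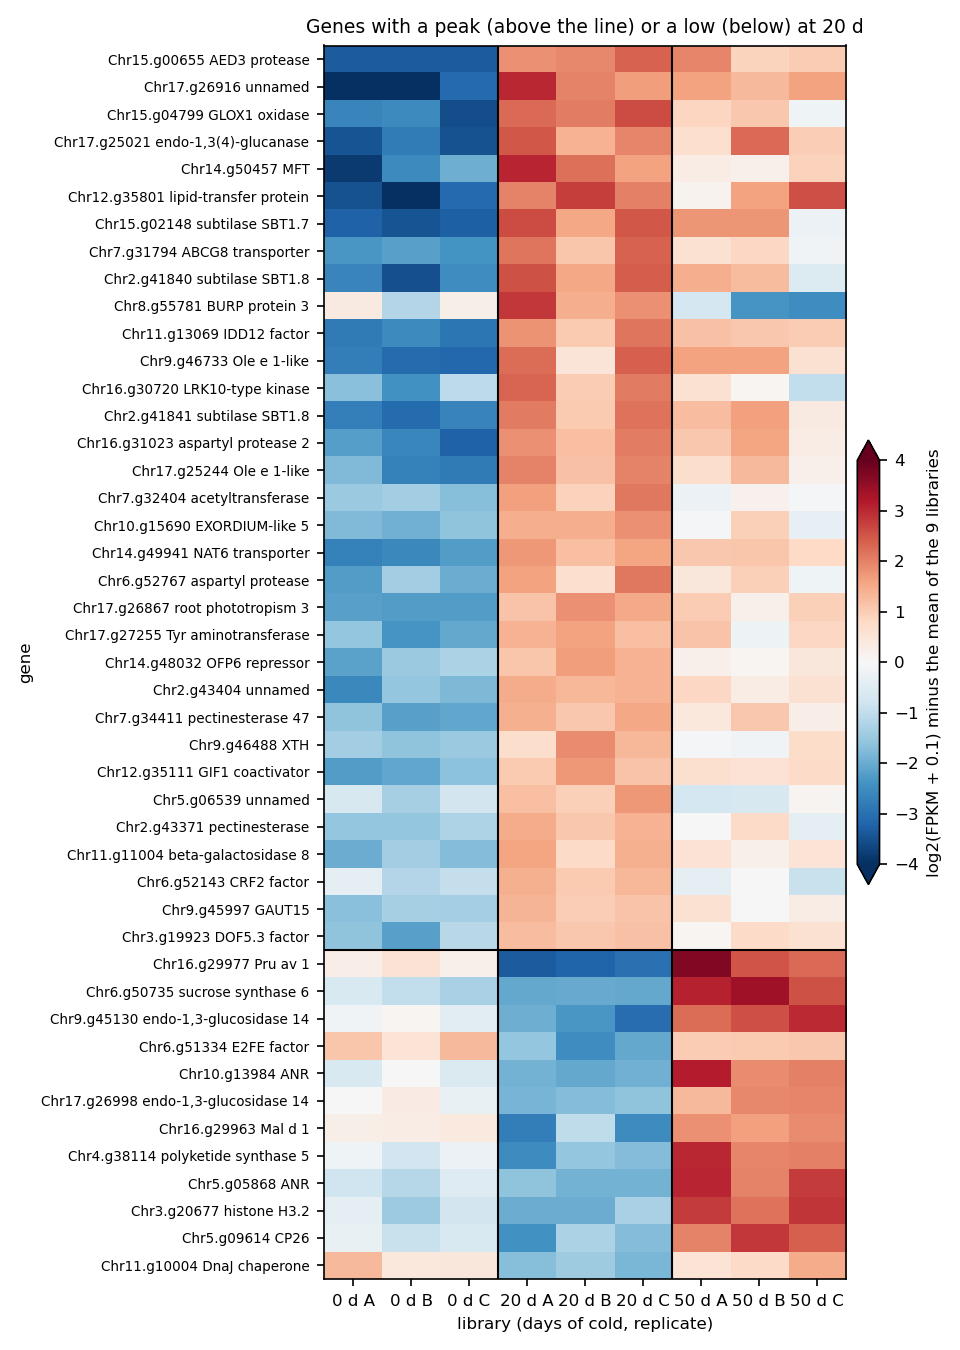
Heat map of the 33 peaks (above the horizontal line) and 12 lows (below it), a gene per row and a library per column, in order of days of cold. Colour is log2(FPKM + 0.1) minus the gene's mean over the 9 libraries. The 20 d columns are the reddest for most peaks and the bluest for the lows, and the 50 d columns keep part of the rise of the peaks.

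Chr14.g50457 is named after MOTHER OF FT AND TFL1 (MFT), a gene that in Arabidopsis is regulated by abscisic acid and gibberellin and controls germination. It had 0.781, 2.04 and 3.11 FPKM at 0 d, 103, 57.4 and 37.5 FPKM at 20 d, and 15.2, 14.1 and 23.3 FPKM at 50 d. Every 20 d library was above every other library, and the spread within 20 d was wide. The contrast was log2 3.53 ± 0.39 (SE; edgeR adjusted p = 0.00288). The other MFT gene, Chr6.g50845, did not have a peak: its FPKM was 149, 93.1 and 175 at 0 d, 109.5, 183 and 77.6 at 20 d and 7.46, 10.6 and 16.1 at 50 d. The 0 d and 20 d libraries overlapped, and the 50 d libraries lay below them.

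Several peaks were named as secreted proteases. Subtilisin-like proteases are secreted serine proteases, and SBT1.7 is known in Arabidopsis for the release of seed coat mucilage. Chr15.g02148, named SBT1.7, had 4.55, 3.86 and 4.41 FPKM at 0 d, 263, 127 and 241 FPKM at 20 d, and 147, 148 and 37 FPKM at 50 d. The 20 d and 50 d libraries overlapped only through 20 d B, and the contrast was log2 3.32 ± 0.40 (edgeR adjusted p = 0.00366). The neighbouring SBT1.8 genes Chr2.g41840 and Chr2.g41841, which lie on chromosome 2 between 5142971 and 5145212, were both peaks. Chr2.g41840 had 3.97, 2.12 and 4.46 FPKM at 0 d, 150.4, 75.3 and 136 FPKM at 20 d, and 69.4, 61.0 and 17.3 FPKM at 50 d, and its 20 d libraries lay above the rest. Chr2.g41841 had 8.14, 6.42 and 8.58 FPKM at 0 d, 232, 113 and 247 FPKM at 20 d, and 128, 171 and 70.8 FPKM at 50 d. These neighbours lie on the same strand and carry different parts of a subtilase, an inhibitor I9 domain in Chr2.g41840 and a PA domain in Chr2.g41841, both of which Chr15.g02148 holds in a single model. They may be pieces of 1 gene counted as 2 peaks, which was not tested. All 6 tested gene models named SBT1.6, SBT1.7 or SBT1.8 were peaks in the wider call (background 1.31%), a family picked out after its values were seen. The summed FPKM of the 15 gene models with these names was 18.8 to 30.8 at 0 d, 348 to 761 at 20 d and 143 to 434 at 50 d. Across the whole list of subtilisin-like proteases and serine carboxypeptidases 7 of 64 tested genes were peaks and none was a low, and without 20 d B 13 were peaks and 2 were lows.

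Aspartyl proteases, which cleave proteins at acidic pH, gave 3 further peaks. Chr15.g00655, named AED3 after an apoplastic protease of Arabidopsis immunity, had no count in any 0 d library, 3.51, 3.71 and 5.11 FPKM at 20 d, and 3.82, 1.77 and 1.93 FPKM at 50 d. Against the floor of 3 counts over the 0 d libraries its 20 d level was at least 106-fold higher. The 20 d and 50 d libraries overlapped, and the edgeR adjusted p of the contrast was 0.00366. Chr6.g52767 and Chr16.g31023 had contrasts of log2 2.31 and 2.65. In the list of cysteine and aspartic proteases as a whole, 10 of 103 tested genes were peaks in the wider call and 1, Chr15.g03692, was a low, against 12 and 8 without 20 d B. Another gene of the family, Chr14.g50303 (ASPARTIC PROTEASE IN GUARD CELL 1), had 23.9, 16.8 and 24.3 FPKM at 0 d, 378, 275 and 421 FPKM at 20 d, and 239, 319 and 211 FPKM at 50 d. It passed the contrast with an edgeR adjusted p of 0.00288 but missed the margin to 50 d.

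**Figure D2:**
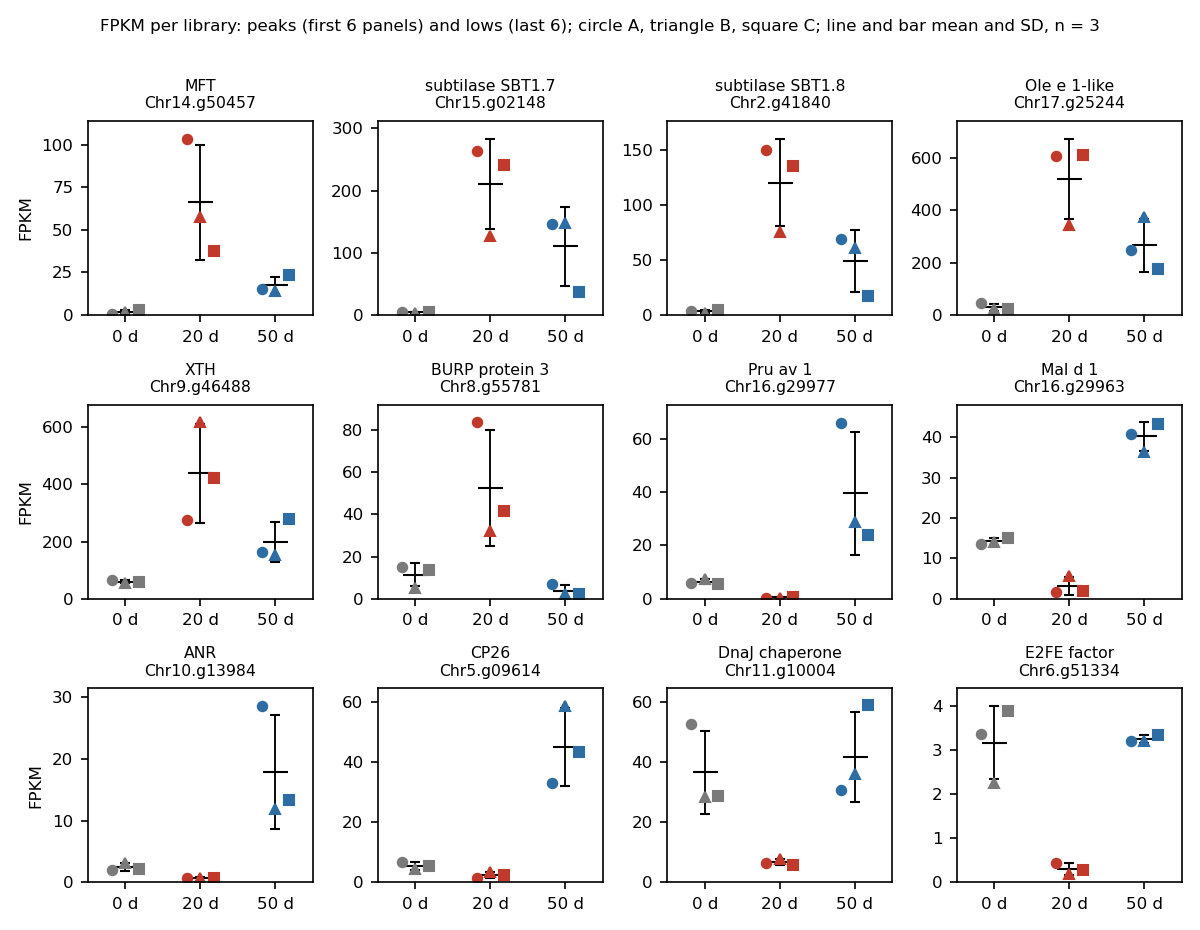
FPKM in each library for 6 peaks (first 6 panels) and 6 lows (last 6 panels), with days of cold on the x axis. Circles, triangles and squares are replicates A, B and C, and the black line and bar are the mean and SD of 3 libraries. MFT reaches 103 FPKM at 20 d, and Pru av 1 stays under 0.6 FPKM there.

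Enzymes that remodel the cell wall formed the next group. Chr9.g46488 encodes xyloglucan endotransglucosylase/hydrolase protein 9 (XTH), a member of a family that cuts and rejoins the xyloglucan tethers of the wall. It had 63.8, 55.0 and 59.9 FPKM at 0 d, 275, 619 and 422 FPKM at 20 d, and 164, 154 and 278 FPKM at 50 d. Its contrast was log2 2.07 ± 0.30 (edgeR adjusted p = 0.0065), and 20 d B, the lowest library for most peaks, was the highest here. Pectinesterases, which take methyl groups off pectin, gave Chr7.g34411 and Chr2.g43371. Chr2.g43371 had 6.49, 6.44 and 8 FPKM at 0 d, 53.7, 40.2 and 50.0 FPKM at 20 d, and 19.3, 32.3 and 14.6 FPKM at 50 d, with the 20 d libraries above all others. Chr7.g34411 and its neighbour Chr7.g34412 lie on chromosome 7 between 3532951 and 3538355, and Chr7.g34412 was a peak in the wider call only. They too carry different domains, pectinesterase in Chr7.g34411 and its inhibitor in Chr7.g34412, and may be pieces of 1 gene. Chr11.g11004 (beta-galactosidase 8), Chr9.g45997 (galacturonosyltransferase 15, of the family that builds pectin) and Chr17.g25021 (endo-1,3(4)-beta-glucanase) had contrasts of log2 1.96, 1.81 and 3.53.

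In the wider call the lists of wall genes held several peaks. Of 56 tested expansins and XTH genes 8 were peaks, which is 14.3% against 1.31% of all tested genes, and 1 was a low. Of 89 pectin-modifying enzymes 7 were peaks and none was a low. The median contrast of these lists was log2 0.25 and 0.13, against 0.09 for all tested genes, and under other scalings and left-out libraries it reached -0.03 and -0.12. Most members of the lists did not pass the test. Without 20 d B the counts of peaks were 6 and 7, and those of lows 3 and 3, where 6.35% of all genes tested were peaks and 4.72% lows, so the pectin list then lay near the background. Expansin-A1 genes Chr14.g50096 and Chr6.g51195 were among the peaks with all 9 libraries. Chr14.g50096 had 16.8, 9.66 and 10.4 FPKM at 0 d, 100.2, 93.4 and 138 FPKM at 20 d, and 90.5, 107 and 94.5 FPKM at 50 d, so its 20 d and 50 d libraries overlapped. Other wall lists were mixed. Of 135 tested glucan, mannan and xylan hydrolases 5 were peaks (3.7%) and 4 were lows (2.96% against 0.642%). By the main rule 1 was a peak and 2 were lows, and without 20 d B the wider call gave 14 and 5. Of 51 cellulose synthase and wall assembly genes 1 was a peak and 1 a low, and without 20 d B 7 and 1.

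**Figure D3:**
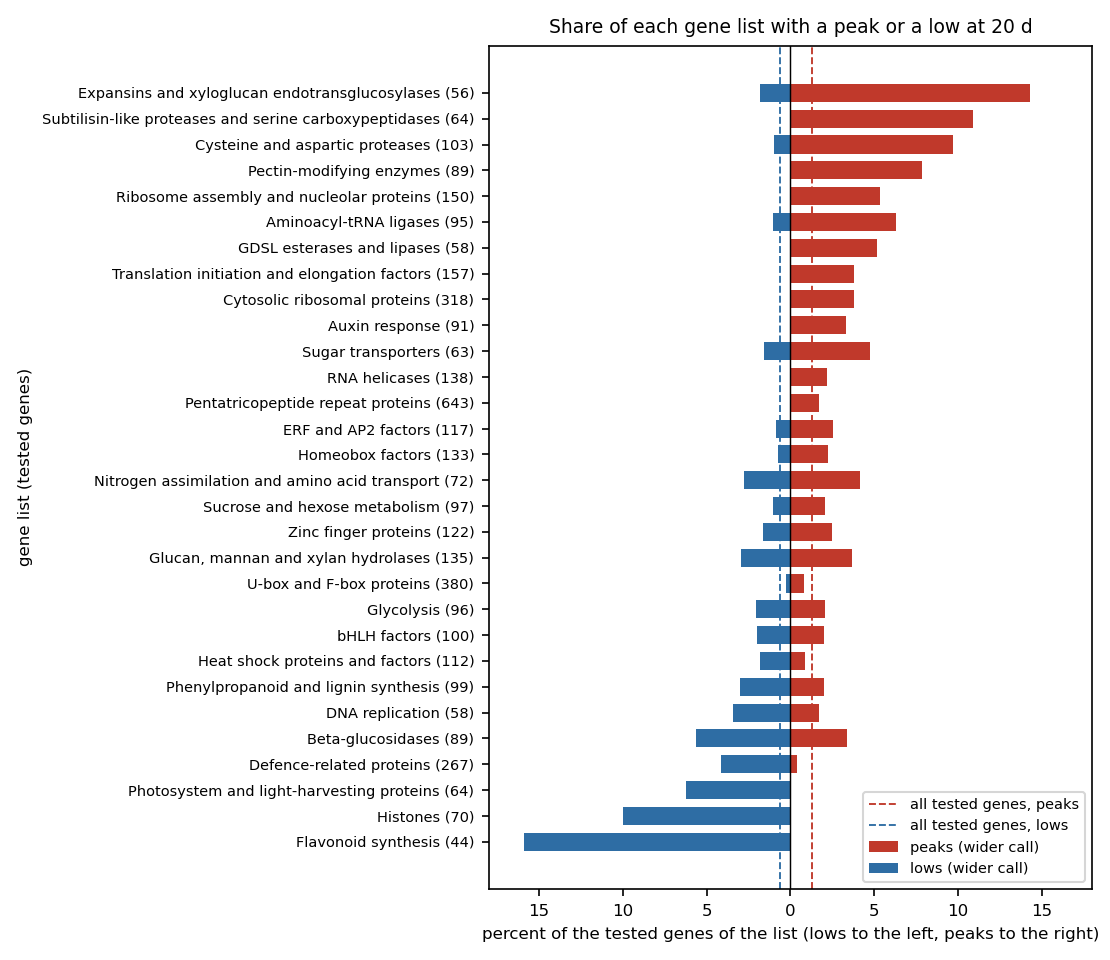
Percent of the tested genes of each list that were peaks (right, red) or lows (left, blue) at 20 d in the wider call, for the 30 lists with at least 40 tested genes and at least 3 called genes. Dashed lines mark all tested genes, at 1.31% and 0.642%. Expansin and XTH, pectin and protease lists lie mostly on the right, with 14.3% for expansins and XTH genes. Flavonoid genes and histones lie on the left, with 15.9% and 10%. Glucan, mannan and xylan hydrolases lie on both sides, with 3.7% peaks and 2.96% lows.

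Several peaks encode secreted or membrane proteins of other kinds. Chr17.g25244 and Chr9.g46733 have no protein name and carry the Ole e 1-like domain, found in small extracellular plant proteins. Chr17.g25244 had 44.9, 23.2 and 21.4 FPKM at 0 d, 605, 344 and 612 FPKM at 20 d, and 249, 374 and 176 FPKM at 50 d. Only 20 d B fell among the 50 d libraries. Chr12.g35801, a lipid-transfer protein, had 1.14, 0.487 and 1.49 FPKM at 0 d, 55.2, 95 and 56.3 FPKM at 20 d, and 15.3, 42.5 and 82.7 FPKM at 50 d. On the same chromosome a second lipid-transfer gene, Chr12.g35803, went the other way: it had 40.7, 36.0 and 44.2 FPKM at 0 d, 17.2, 31.9 and 22.6 FPKM at 20 d, and 207, 351 and 642 FPKM at 50 d, and it was a low in the wider call (edgeR adjusted p = 0.0125). Chr14.g49941 (nucleobase-ascorbate transporter 6) had 3.78, 4.10 and 5.23 FPKM at 0 d, 83.4, 57.6 and 74.8 FPKM at 20 d, and 53.1, 54.2 and 43.1 FPKM at 50 d. The 20 d libraries lay just above the 50 d libraries. Chr7.g31794 (ABC transporter G family member 8), Chr10.g15690 (EXORDIUM-like 5, an extracellular protein of a family linked to brassinosteroid growth responses in Arabidopsis) and Chr15.g04799 (aldehyde oxidase GLOX1) had contrasts of log2 3.24, 2.36 and 4.08, each with the 20 d libraries above the rest.

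Chr8.g55781, the peak called against 50 d alone, encodes a BURP domain protein, of a plant family found at the wall and in seeds. It had 15.2, 5.19 and 13.8 FPKM at 0 d, 83.7, 32.2 and 41.7 FPKM at 20 d, and 7.10, 2.23 and 2.03 FPKM at 50 d. It was the only peak with less RNA at 50 d than at 0 d. The fold changes were log2 2.29 against 0 d (edgeR adjusted p = 0.013) and log2 3.79 against 50 d (adjusted p = 0.00558). The unnamed gene Chr5.g06539 had 175, 108 and 164 FPKM at 0 d, 628, 523 and 893 FPKM at 20 d, and 167, 173 and 289.6 FPKM at 50 d. Its 20 d libraries were above all others, and its adjusted p against 50 d was 0.0148.

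Regulatory genes among the peaks were few. Chr6.g52143 encodes CRF2, a cytokinin response factor of the ERF family, and had 31.2, 18.3 and 21.3 FPKM at 0 d, 110.5, 86.0 and 103 FPKM at 20 d, and 32.0, 40.7 and 22.4 FPKM at 50 d. The 20 d libraries lay above the others by a clear gap, and the contrast was log2 1.92 ± 0.26 (edgeR adjusted p = 0.0055). Chr12.g35111 (GRF1-interacting factor 1, a coactivator of cell proliferation in Arabidopsis leaves) had 4.19, 4.72 and 6.44 FPKM at 0 d, 42.1, 67.5 and 44.6 FPKM at 20 d, and 31.4, 30 and 34.2 FPKM at 50 d. Chr11.g13069 (indeterminate-domain 12), Chr14.g48032 (OFP6) and Chr3.g19923 (DOF5.3) had contrasts of log2 2.88, 2.20 and 1.75. Signalling genes among the peaks were Chr16.g30720, a LEAF RUST 10 type receptor-like kinase (log2 2.81), and Chr17.g26867, named root phototropism protein 3 (log2 2.30).

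**Figure D4:**
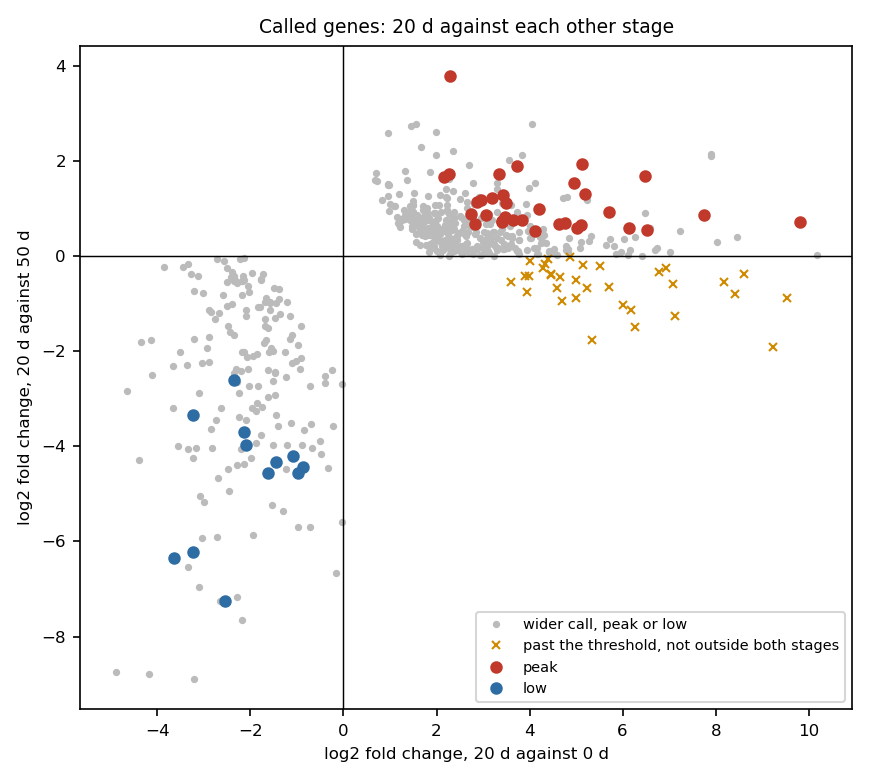
Log2 fold change of 20 d against 0 d (x axis) and against 50 d (y axis) for every called gene. Peaks (red) lie far to the right and a little above 0, with Chr8.g55781 alone at log2 3.79 on the y axis, and lows (blue) lie far below 0 on the y axis. Crosses are genes past the threshold whose 20 d level lay between the other stages.

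The contrast also called genes that rose and did not come down. Of the 103 genes past the threshold (0.363% of those tested; 91 higher at 20 d, 0.321%), 58 missed the margin, and all 58 were higher at 20 d. In 40 of the 58 the 50 d level was within log2 0.5 of the 20 d level, and in 33 it exceeded the 20 d level. XTH protein 9 genes Chr17.g25499 and Contig43.g59325 belong here. Chr17.g25499 had 3.35, 1.71 and 1.41 FPKM at 0 d, 71.8, 155 and 93.8 FPKM at 20 d, and 84.9, 67.0 and 101 FPKM at 50 d. Over all tested genes the part of the variance between stages that lay off the straight course between 0 d and 50 d was 12.4%, and leaving out a single library gave 5.73% (without 20 d A) to 18.4% (without 20 d B).

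Among the lows, a family of allergen genes stood out. Mal d 1 and Pru av 1 are the apple and cherry major allergens, small proteins of the Bet v 1 family that are also counted among the pathogenesis-related proteins. Chr16.g29977, named Pru av 1, had 5.91, 7.4 and 5.66 FPKM at 0 d, 0.399, 0.451 and 0.543 FPKM at 20 d, and 66.1, 28.7 and 24.0 FPKM at 50 d. The contrast of log2 -5.00 ± 0.52 had an edgeR adjusted p of 0.00247. Chr16.g29963, named Mal d 1, had 13.5, 14.1 and 15.2 FPKM at 0 d, 1.63, 5.61 and 1.95 FPKM at 20 d, and 40.8, 36.5 and 43.4 FPKM at 50 d. In both genes the 20 d libraries lay below all the others.

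Of 31 tested major allergen genes 10 were lows in the wider call and none was a peak, a share of 32.3% against 0.642% of all tested genes. Without 20 d B 17 were lows. This family was chosen after its values were seen. The lows included 5 genes on chromosome 16 between 9856676 and 9988947 (Chr16.g29955, Chr16.g29960, Chr16.g29963, Chr16.g29977 and Chr16.g29978) and 4 on chromosome 13 between 9703160 and 9775761. Within the same array on chromosome 16 the abundant Chr16.g29971 did not follow: it had 1824, 1238 and 1337 FPKM at 0 d, 217, 1414 and 136 FPKM at 20 d, and 231, 586 and 706 FPKM at 50 d, so that 20 d B matched the 0 d libraries. Chr16.g29975 had 13.7, 3.81 and 10.7 FPKM at 0 d, 52.4, 141 and 124 FPKM at 20 d, and 36.5, 352 and 227 FPKM at 50 d. The summed FPKM of the 41 genes was 2274 to 3156 at 0 d, 731 in 20 d A, 674 in 20 d C but 2946 in 20 d B, and 1339 to 3086 at 50 d. These genes are close copies that can share reads, so values of single members are uncertain.

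Flavan-3-ol synthesis gave a second group of lows. Anthocyanidin reductase (ANR) and leucoanthocyanidin reductase (LAR) make the building blocks of proanthocyanidins. The ANR gene Chr10.g13984 had 2.06, 3.16 and 2.11 FPKM at 0 d, 0.788, 0.692 and 0.759 FPKM at 20 d, and 28.5, 11.9 and 13.3 FPKM at 50 d. The ANR gene Chr5.g05868 had 2.08, 1.63 and 2.56 FPKM at 0 d, 1.15, 0.925 and 0.937 FPKM at 20 d, and 31.6, 15.1 and 26.1 FPKM at 50 d. Their 20 d libraries lay below all the others, with contrasts of log2 -3.10 ± 0.41 and -2.77 ± 0.34 (edgeR adjusted p = 0.00455 and 0.00384). Not every copy dipped: the ANR gene Chr5.g05869 had 19.7, 15.8 and 15.3 FPKM at 0 d, 2.18, 3.81 and 2.46 FPKM at 20 d, and 1.37, 1.47 and 1.73 FPKM at 50 d, and Chr8.g54524 had 15.3, 19.3 and 24.2 FPKM at 20 d between its 0 d and 50 d values.

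In the flavonoid list 7 of 44 tested genes were lows in the wider call and none was a peak, with a median contrast of log2 -0.75 against 0.09 for all tested genes. Without 20 d B 9 were lows. The scalings and left-out libraries gave a median between -1.02 and -0.52. Besides ANR and LAR the lows were Chr7.g32223, a chalcone isomerase, and Chr15.g02664, naringenin 3-dioxygenase, which stands at the step to dihydroflavonols. Chr15.g02664 had 19.7, 17.7 and 26.0 FPKM at 0 d, 6.71, 6.97 and 6.07 FPKM at 20 d, and 36.7, 16.4 and 27.7 FPKM at 50 d, and it was called against 0 d and against 50 d separately. The type III polyketide synthases Chr4.g38114 and Chr4.g38112, of the chalcone synthase superfamily, overlap on chromosome 4. Chr4.g38114 (346354 to 347892, minus strand) lies within the span of Chr4.g38112 (303229 to 367756, plus strand), and the strand setting of the counting was not stated, so reads of the pair may not be separable. Chr4.g38114 had 7.19, 4.76 and 6.89 FPKM at 0 d, 1.34, 2.76 and 2.40 FPKM at 20 d, and 66.2, 32.2 and 33.6 FPKM at 50 d.

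ANR, LAR and TRANSPARENT TESTA genes are also the seed coat markers used here. The 16 markers summed to 139 to 172 FPKM at 0 d, 65.1 to 79.1 FPKM at 20 d and 117 to 172 FPKM at 50 d, and 5 of the 12 tested were lows. All 5 were reductases. The 4 other tested markers summed to 83.0 to 97.0 FPKM at 0 d, 41.6 to 44 FPKM at 20 d and 36.8 to 45.8 FPKM at 50 d, and none of the 4 was called. In bulk seeds, fewer cells of a tissue and less RNA per cell cannot be told apart, and the part of the seed coat in the flavonoid lows was not tested.

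**Figure D5:**
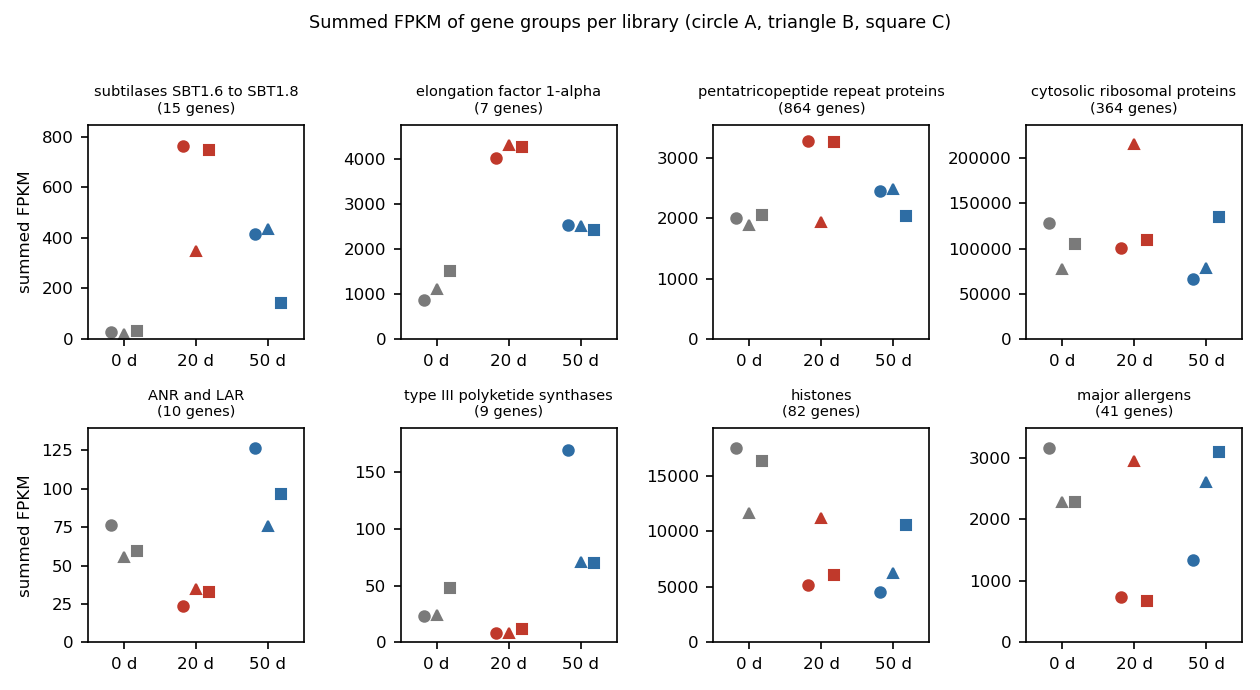
Summed FPKM of 8 gene groups in each library, with days of cold on the x axis. Circles, triangles and squares are replicates A, B and C. The 20 d libraries lie together for elongation factor 1-alpha, ANR and LAR, and polyketide synthases, whereas 20 d B (triangle) lies away from 20 d A and C for subtilases, ribosomal proteins, pentatricopeptide repeat proteins, histones and allergens.

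The remaining lows belong to several pathways. Chr6.g51334 encodes E2FE, an atypical E2F factor that holds back endoreduplication in Arabidopsis. It had 3.36, 2.25 and 3.89 FPKM at 0 d, 0.451, 0.191 and 0.287 FPKM at 20 d, and 3.2, 3.21 and 3.34 FPKM at 50 d, so the 0 d and 50 d libraries overlapped and the 20 d libraries lay below them. Chr11.g10004, a DnaJ co-chaperone, had 52.5, 28.6 and 28.8 FPKM at 0 d, 6.41, 7.79 and 5.93 FPKM at 20 d, and 30.7, 36.0 and 58.9 FPKM at 50 d. These genes were called against 0 d and 50 d separately, in a set of 11 genes of all tested (0.0388%), all of them lows. The set also held Chr16.g29977, Chr16.g29963, Chr16.g29960, Chr15.g02664, Chr9.g45130, Chr17.g26998, the kinase Chr16.g30154 (CIPK1) and the unnamed Chr9.g46450 and Chr12.g34939.

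Chr9.g45130 and Chr17.g26998 are named glucan endo-1,3-beta-glucosidase 14, of the enzyme family that breaks down callose. Chr9.g45130 had 31, 3 and 277 counts over the libraries of 0 d, 20 d and 50 d, so its level at 50 d was 81.8 times that at 20 d with a 95% counting interval of 27.7 to 399. Chr6.g50735, sucrose synthase 6, had 19, 3 and 590 counts, and its 50 d level was 174 times that at 20 d (95% counting interval 59.3 to 847). Its 0 d level was 6.41 times that at 20 d (1.89 to 33.8). Such intervals cover counting error only.

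Chr5.g09614 encodes CP26, a minor light-harvesting protein of photosystem II. It had 6.69, 4.35 and 5.3 FPKM at 0 d, 1.46, 3.39 and 2.39 FPKM at 20 d, and 33.1, 58.6 and 43.2 FPKM at 50 d. Of 64 tested photosystem and light-harvesting genes 4 were lows (6.25% against 0.642%) and none a peak. Without 20 d B 12 were lows and 1 was a peak, where 4.72% of all genes tested were lows and 6.35% peaks. The green tissue markers summed to 171 to 269 FPKM at 0 d, 139 to 195 FPKM at 20 d and 532 to 692 FPKM at 50 d. Chr3.g20677 encodes histone H3.2, the replication-type histone H3, and had 2.75, 1.29 and 2.17 FPKM at 0 d, 0.848, 0.851 and 1.44 FPKM at 20 d, and 26.2, 16.8 and 27.1 FPKM at 50 d. The 20 d and 0 d libraries overlapped.

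Histones as a list had 7 lows and no peak among 70 tested genes, 10% against 0.642%, and a median contrast of log2 -0.45 that stayed between -0.94 and -0.24 under every scaling and left-out library. Without 20 d B 20 were lows and 2 were peaks. The courses of single genes varied. The H4 genes Chr14.g49472 and Chr6.g51875 were highest at 0 d: Chr14.g49472 had 128, 82.1 and 151 FPKM at 0 d, 9.83, 16.9 and 8.56 FPKM at 20 d, and 12, 9.36 and 25.7 FPKM at 50 d. The H2A gene Chr4.g40471 was highest at 50 d, with 6.56, 2.52 and 8.23 FPKM at 0 d, 1.12, 1.86 and 1.44 FPKM at 20 d, and 19.6, 15.8 and 33.2 FPKM at 50 d. Summed over 82 genes the histones had 11621 to 17491 FPKM at 0 d, 5140 in 20 d A, 6024 in 20 d C and 11209 in 20 d B, and 4516 to 10535 FPKM at 50 d. Copies of a histone type are close to each other, so single values are uncertain. Some mitotic genes were lows in the wider call, 6 of 118 (5.08% against 0.642%) in a set picked after the values were seen. Among them were Aurora kinase genes Chr15.g04126 and Chr8.g54627 and the kinesin Chr12.g35500. The median contrast of the set was log2 -0.01. Without 20 d B 9 were lows and 3 were peaks, and without 50 d C 2 were lows. The list of cyclins and cyclin-dependent kinases had 1 low and no peak of 80 tested, and that of tubulins and kinesins 1 low and 1 peak of 131.

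Genes of several protein synthesis lists, though not of all, followed in the wider call. Chr4.g38173, an elongation factor 1-alpha, which brings aminoacyl-tRNA to the ribosome, had 296, 357 and 492 FPKM at 0 d, 1812, 1831 and 1945 FPKM at 20 d, and 1149, 1017 and 1099.6 FPKM at 50 d. Its contrast was log2 1.58 ± 0.26 with an edgeR adjusted p of 0.0124, just outside the main limit, and its 20 d libraries lay above all others. The near copy Chr4.g38180 had 1623, 1913 and 1739 FPKM at 20 d, and the 7 genes of this name summed to 869 to 1516 FPKM at 0 d, 4029 to 4320 FPKM at 20 d and 2419 to 2547 FPKM at 50 d.

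Of 318 tested cytosolic ribosomal proteins 12 were peaks and none was a low (3.77% against 1.31%). Without 20 d B 12 were peaks and 5 were lows, both under the background of 6.35% and 4.72%. Fitted levels lay above both other stages in 261 of the 318, where 26.6% of all tested genes did. Library 20 d B moved with this shift: the summed FPKM of 364 genes was 100894 in 20 d A, 109607 in 20 d C and 215856 in 20 d B, against 77075 to 128242 at 0 d and 66045 to 135463 at 50 d, and the median contrast of log2 0.60 was 0.06 without 20 d B. Proteins of ribosome assembly had 8 peaks of 150 tested (5.33%) and a median of log2 0.46, with 40 peaks and a median of 0.34 without 20 d B. The nucleolar protein 56 gene Chr6.g51633, part of the machinery that modifies ribosomal RNA, had 39, 41.3 and 36.7 FPKM at 0 d, 150.1, 109 and 139 FPKM at 20 d, and 80.4, 85.3 and 64.2 FPKM at 50 d. Translation factors (6 of 157) and aminoacyl-tRNA ligases (6 peaks and 1 low of 95) had medians of log2 0.42 and 0.39, and without 20 d B 34 peaks and 7 lows, and 21 peaks and 1 low. Organellar ribosomal proteins had no peak and no low among 161 tested genes, and without 20 d B no peak and 8 lows. Their median contrast was log2 0.24, and -0.16 without 20 d B.

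Pentatricopeptide repeat proteins bind and process organelle RNA. Of 643 tested genes 11 were peaks (1.71%, near the 1.31% of all tested genes) and none was a low. Fitted 20 d levels lay above both other stages in 463 of the 643, where 26.6% of all tested genes did. Their median contrast was log2 0.84, against 0.09 for all tested genes, and it lay between 0.36 and 1.10 under every scaling and left-out library. Here too 20 d B differed, in the other direction than for ribosomal proteins: the summed FPKM was 3271 in 20 d A, 3252 in 20 d C and 1937 in 20 d B, against 1887 to 2049 at 0 d and 2033 to 2482 at 50 d. Without 20 d B the number of peaks was 173 and that of lows 2. The example at the limit was Chr14.g48829, with 11.3, 11.1 and 12.4 FPKM at 0 d, 57.6, 31.7 and 48.2 FPKM at 20 d, and 22.7, 25 and 18.1 FPKM at 50 d (edgeR adjusted p = 0.0103).

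Hormone genes gave few calls at 20 d, and in short lists 1 gene made a large share. In gibberellin synthesis 1 of 17 tested genes was a peak in the wider call (5.88% against 1.31%). Without 20 d B 2 were peaks and none was a low. The peak with all libraries was Chr1.g56784 (gibberellin 20 oxidase 2, which acts late in the pathway), with 1.14, 0.836 and 0.9 FPKM at 0 d, 6.30, 1.72 and 4.64 FPKM at 20 d, and 2.45, 1.91 and 1.68 FPKM at 50 d. Library 20 d B lay among the 50 d libraries. Ent-kaurene synthase and oxidase make the first gibberellin intermediates, and none of these genes passed the test. The synthase gene Chr10.g14863 had 3.33, 4.11 and 3.88 FPKM at 0 d, 5.05, 4.00 and 4.38 FPKM at 20 d, and 2.04, 2.03 and 2.06 FPKM at 50 d (log2 0.74, edgeR adjusted p = 0.125). The oxidase gene Chr8.g53948 had 5.37, 3.19 and 4.71 FPKM at 0 d, 14.1, 10.5 and 10.6 FPKM at 20 d, and 8.65, 3.18 and 1.65 FPKM at 50 d (log2 1.43, adjusted p = 0.11). Its 20 d libraries lay above all others, but the 50 d libraries were spread widely. Chr8.g53948 and Chr8.g53949 are neighbours on the same strand and may be pieces of 1 gene, which was not tested. The oxidase genes Chr8.g53947, Chr8.g53949 and Chr8.g53950 had contrasts of log2 1.81, 0.61 and 0.85. The most abundant oxidase gene, Chr15.g04608, went the other way (log2 -0.33, edgeR adjusted p = 0.517), with means of 9.07, 8.19 and 12.7 FPKM at 0 d, 20 d and 50 d. The DELLA gene Chr17.g27556 (GAI, a repressor of gibberellin responses) was a peak in the wider call, with 9.92, 10.6 and 11.5 FPKM at 0 d, 65.3, 31.8 and 57.4 FPKM at 20 d, and 42.7, 26.2 and 18.6 FPKM at 50 d. It was 1 of 13 tested perception and DELLA genes (7.69%), of which 3 were peaks and none was a low without 20 d B.

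For abscisic acid, the 8'-hydroxylases that break the hormone down split. Of 5 tested, 1 was a peak and 1 a low in the wider call (20% each, against 1.31% and 0.642%). Without 20 d B 3 were peaks and 1 was a low. Chr16.g28238 (8'-hydroxylase 1) was a peak in the wider call with 7.93, 5.8 and 5.35 FPKM at 0 d, 25.4, 11.2 and 22.6 FPKM at 20 d, and 9.58, 11.6 and 9.53 FPKM at 50 d. Chr15.g04187 (8'-hydroxylase 4) was a low, with 1.26, 1.10 and 2.12 FPKM at 0 d, 0.180, 0.356 and 0.138 FPKM at 20 d, and 1.07, 3.95 and 1.29 FPKM at 50 d. Among 15 tested dormancy regulators, Chr15.g03683 (DOG1-like 2, related to the DELAY OF GERMINATION gene of Arabidopsis) and Chr14.g47933 (ABI5, a bZIP factor of abscisic acid signalling) were peaks in the wider call. These 2 made 13.3% of the list, and without 20 d B 4 were peaks and none was a low. Chr15.g03683 had 15.6, 8.93 and 10.4 FPKM at 0 d, 62.8, 79.2 and 45.6 FPKM at 20 d, and 34.0, 26.2 and 46.9 FPKM at 50 d. Chr14.g47933 had 55.0, 20.1 and 55.8 FPKM at 20 d, and here 20 d B lay among the 50 d values of 17.8 to 29.0. None of 12 tested abscisic acid receptors, 102 protein phosphatases 2C or 17 SnRK2-type kinases was called in the wider call, and without 20 d B 0, 4 and 0 were peaks and 1, 1 and 0 were lows. With DESeq2 0, 1 and 1 were peaks and 0, 1 and 0 were lows.

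The peaks nearest the adjusted p of 0.01 on the inside were Chr17.g27255 (tyrosine aminotransferase, 0.00996), Chr3.g19923, Chr14.g48032, Chr8.g55781 and Chr6.g52767 (0.00873). The nearest outside were Chr14.g48829, Chr7.g32840, Chr10.g15169, Chr4.g38173 and Chr6.g51390, between 0.0103 and 0.0125. Among the lows Chr17.g26998 (0.00938) and Chr3.g20677 (0.00837) lay inside, and the histone gene Chr4.g40471 and photosystem II gene Chr5.g07039 outside. Of these, the phosphate transporter gene Chr10.g15169 had 23.9, 46.7 and 29.1 FPKM at 0 d, 96.8, 81.2 and 80.8 FPKM at 20 d, and 6.25, 19.1 and 14.2 FPKM at 50 d.

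In position and length the genes had some features that the rule did not use. The median length was 1575 bases for the peaks, 1137 for the lows and 1497 for all tested genes. In the wider call it was 1696.5 and 1148 bases. The 33 peaks were spread over 14 chromosomes and the lows over 9, where all tested genes lay on 17. In the wider call 58 of the 372 peaks and 37 of the 182 lows had another gene of the same call within 100000 bases, in 28 and 16 clusters, and the 5 allergen genes on chromosome 16 were the largest. No such share was computed for other tested genes, so whether these counts exceed a background was not tested.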

How the data were processed

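RNA-seq was made from pooled Pyrus calleryana seeds at 0, 20 and 50 d of cold, with 3 libraries per stage. The authors extracted RNA with CTAB, made libraries with a NEB Next Ultra kit and mapped the reads with HISAT2 to the genome of Pyrus betuleafolia, a related pear, whose gene models and coordinates are used. The read counts per gene were deposited by the authors without normalization, and the FPKM values were also deposited by the authors. The counting tool and its strand setting were not stated, so overlapping and antisense genes cannot be told apart. Protein names are the Swissprot names in the deposited table. The 15 columns of the authors' own comparisons (fold changes, p-values and means) were not used.

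Counts were filtered (filterByExpr), scaled (TMM) and fitted over 9 libraries with edgeR 4.0.16 in R 4.3.3, with Benjamini-Hochberg adjustment. Alternatives used DESeq2 1.42.0, limma 3.58.1, other filters and limits, and each library left out. The procedure was tested on simulated data. The libraries of a stage are pools, and p-values measure only the spread between them. Named genes were the 10 peaks and 10 lows with the largest contrast and no overlap between libraries, the 10 of each with the highest FPKM, the most abundant peak and low of each list, the genes called against both stages, the ent-kaurene genes, and the 5 nearest each side of the limit. The members and lists were chosen with earlier results of these data known, and the families of allergens, SBT1.6 to SBT1.8, flavan-3-ol reductases, polyketide synthases, mitotic genes and elongation factor 1-alpha after their values were seen.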

Additional observations from a re-analysis of the deposited data

How the results depend on the processing

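Direction was checked for 68 genes: the peaks and lows, the genes nearest the limit, the ent-kaurene genes and those called against both stages. None of the 68 reversed under any alternative run, but most were chosen from these same libraries. Other genes named from the wider call were not in this check. The number of genes called changed with nearly every setting. Given as peaks, lows and genes past the threshold, against 33, 12 and 103, DESeq2 called 198, 255 and 937, no low-count filter 162, 89 and 535, an adjusted p of 0.05 199, 155 and 791, limma-voom with library weights 1253, 961 and 4490, and a gene-length trend taken off 168, 77 and 565. The glmTreat test against log2 1 called 0, 0 and 1. A margin of log2 0 gave 58 peaks and a margin of log2 1 gave 14. A mean FPKM of at least 1 in all 3 stages gave 6 lows and 57 genes past the threshold. limma-trend gave 29 lows on log2(FPKM + 1) and 38 on log2(FPKM + 0.1). Leaving out a library gave 0 to 265 peaks, 0 to 160 lows, 1 to 717 genes past the threshold and an off-axis share of 5.73% to 18.4%, the highest each time without 20 d B. The cause was not tested. With the replicate letter as a block, 0 peaks, 0 lows and 1 gene past the threshold were called, but the letters did not pair the samples: same-letter correlations ran from -0.561 to 0.552. The 3 pooled libraries per stage limit all of these calls, and low genes also by counts of 3 or fewer at a stage.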
